A study of Mus musculus with 6 samples.

Results

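The 10 mouse genes described here are the RUNX transcription factors Runx1, Runx2 and Runx3, their partner subunit Cbfb, and 6 genes of bone formation and mineralization (Spp1, Alpl, Sp7, Ank, Enpp1 and Slc20a1). They were taken by symbol from the 16880 genes of the deposited RNA-sequencing table, and all 10 had a row. The cells are labelled ATDC5, a mouse chondrogenic line, whereas the study calls them chondrocytes and its methods describe primary mouse articular chondrocytes. In 3 libraries the cells had received IL-1β at 10 ng/mL, and in the other 3 they had received the same IL-1β dose plus 10 μM of NP-G2-044, an inhibitor of the actin-bundling protein fascin (FSCN1), for 24 h according to the methods. Col2a1, the defining collagen of cartilage, gave 32 pooled reads under IL-1β and 6 with the inhibitor, so the chondrogenic label is not borne out by that marker. The titles of the inhibitor samples give NP-G2-044 and their treatment label gives NP-G2-047. All 6 libraries therefore carry IL-1β, and the DMSO samples of the methods are not analysed here. The methods speak of biological replicates, but the labels do not say whether the cultures were separate, so p-values measure the spread between these libraries, which may be technical.

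RUNX proteins bind DNA through their runt domain, and the CBFβ protein, which does not itself contact DNA, stabilizes that binding. Runx2 is the master factor of osteoblast differentiation and drives chondrocyte hypertrophy, Runx1 acts in blood formation and early cartilage, Runx3 acts with Runx2 in chondrocyte maturation, and Sp7 (osterix) acts downstream of Runx2 in osteoblasts. Mineral growth depends on the balance of phosphate and pyrophosphate outside the cell. Tissue-nonspecific alkaline phosphatase (Alpl) hydrolyses pyrophosphate to phosphate, Enpp1 makes pyrophosphate from nucleotides, Ank is needed for its release from the cell, Slc20a1 (PiT-1) imports phosphate, and osteopontin (Spp1) binds to and restrains mineral.

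The RUNX genes share a short sequence near their first annotated starts. The RUNX hexamer ACCACA, or TGTGGT on the other strand, was searched in RefSeq promoter windows (GRCm38.p6, 250 bases before to 50 after each annotated start). Of the 10 genes, 9 had 14 windows between them, and the hexamer lay in 6 of these, 1 each for Runx1, Runx2, Runx3, Spp1, Enpp1 and Slc20a1. Across all 32851 windows 16.8% held it. A tandem of ACCACA, 2 bases and ACCACA again, searched on both strands and containing the hexamer by construction, was found in 7 windows (0.0213%). Of these, 3 belong to Runx1, Runx2 and Runx3, and another, that of Gm16225, overlaps the Runx3 window on the opposite strand. The other windows were those of Gm12236, Gm15462 and Olfr24. Only the spacing of 2 bases was searched, so these counts say nothing about tandems with another spacing. The 30 bases around each RUNX tandem are given 5′ to 3′ on the gene's strand, with the hexamers in capitals.
Runx1 (chr16:92826025-92826054, minus strand): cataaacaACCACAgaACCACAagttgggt
Runx2 (chr17:44814583-44814612, minus strand): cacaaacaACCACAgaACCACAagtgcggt
Runx3 (chr4:135120503-135120532, plus strand): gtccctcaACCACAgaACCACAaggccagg
The Runx1 and Runx2 tandems began 28 and 23 bases after the start, and the Runx3 tandem began 134 bases before it. Of the 30 bases, 27 were identical between Runx1 and Runx2, 21 between Runx2 and Runx3, and 19 between Runx1 and Runx3. Each count includes the bases of both hexamers, which are identical by construction. A match describes letters only, and no binding was measured.

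The 250 bases before the first start of Spp1 and of Slc20a1 are shown because these genes had the largest fall and the largest rise among members with at least 50 reads in every library. Both are on the plus strand of GRCm38.p6, and the hexamer match is in capitals.
Spp1 (chr5:104434861-104435110): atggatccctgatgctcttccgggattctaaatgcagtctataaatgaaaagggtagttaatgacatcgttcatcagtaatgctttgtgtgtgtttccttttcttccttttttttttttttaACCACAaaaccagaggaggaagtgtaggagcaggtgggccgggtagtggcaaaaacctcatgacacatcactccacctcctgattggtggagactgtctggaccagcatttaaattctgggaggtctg
Slc20a1 (chr2:129198523-129198772): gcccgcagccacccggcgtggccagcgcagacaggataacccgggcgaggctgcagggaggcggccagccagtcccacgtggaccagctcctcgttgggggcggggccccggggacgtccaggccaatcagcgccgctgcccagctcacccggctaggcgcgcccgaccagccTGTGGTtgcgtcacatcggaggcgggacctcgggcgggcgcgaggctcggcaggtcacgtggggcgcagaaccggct
The Spp1 match lay 128 bases before the start on the gene's strand, and the Slc20a1 match lay 77 bases before the start on the opposite strand. No match was found in the 2 windows of Alpl, in the windows of Cbfb and Ank, or in the second windows of Runx1, Runx3, Spp1 and Slc20a1. Any bearing of the hexamer on the changes was not tested.

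**Figure D1:**
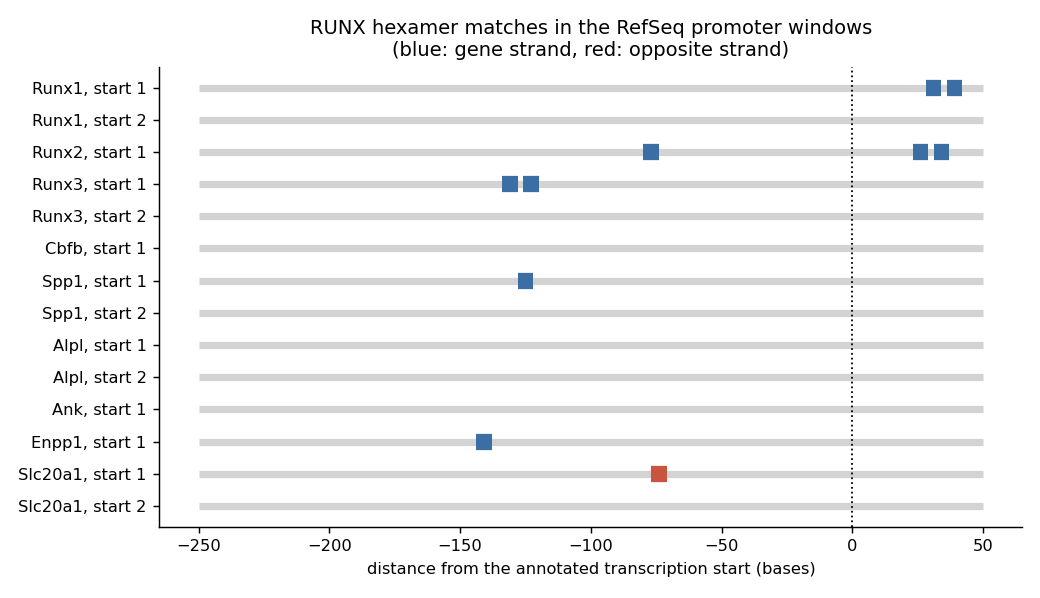
RUNX hexamer matches (blue, gene strand; red, opposite strand) in the 14 promoter windows of 9 genes, by distance from the annotated start in bases. Pairs of neighbouring blue marks in the first windows of Runx1, Runx2 and Runx3 are the tandems, at 28, 23 and -134 bases.

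Library totals ranged from 16615824 to 17735860 reads, and 11983 genes passed the filter on low counts and were tested. Of these, 40.2% were higher and 39.8% were lower with NP-G2-044 at an adjusted p below 0.05 (quasi-likelihood test of edgeR, Benjamini-Hochberg adjusted, used for every adjusted p given here unless another tool is named). With a log2 fold change above 1 in size as well, 6.48% were higher and 10.1% were lower, and for 79.4% the TPM of the groups did not overlap. Beyond read sampling the spread between libraries was small, with a common coefficient of variation of 2.33% across genes. Passing the test is therefore the usual state of a gene here, and the size of each difference carries more information. Of the 10 genes, 2 were higher and 7 were lower past the test, 1 higher and 4 lower past both cutoffs, and 9 did not overlap. Alpl, Sp7 and Enpp1 passed the filter through their levels under IL-1β, since 0, 1 and 1 of their inhibitor libraries lay above the filter's 0.581 CPM, so these counts support nothing by themselves. Log2 fold changes set the inhibitor group over the IL-1β group and were fitted to the counts, and levels are in TPM, which is scaled to gene length. RNA from whole cultures cannot tell fewer cells of a type from less RNA per cell.

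**Figure D2:**
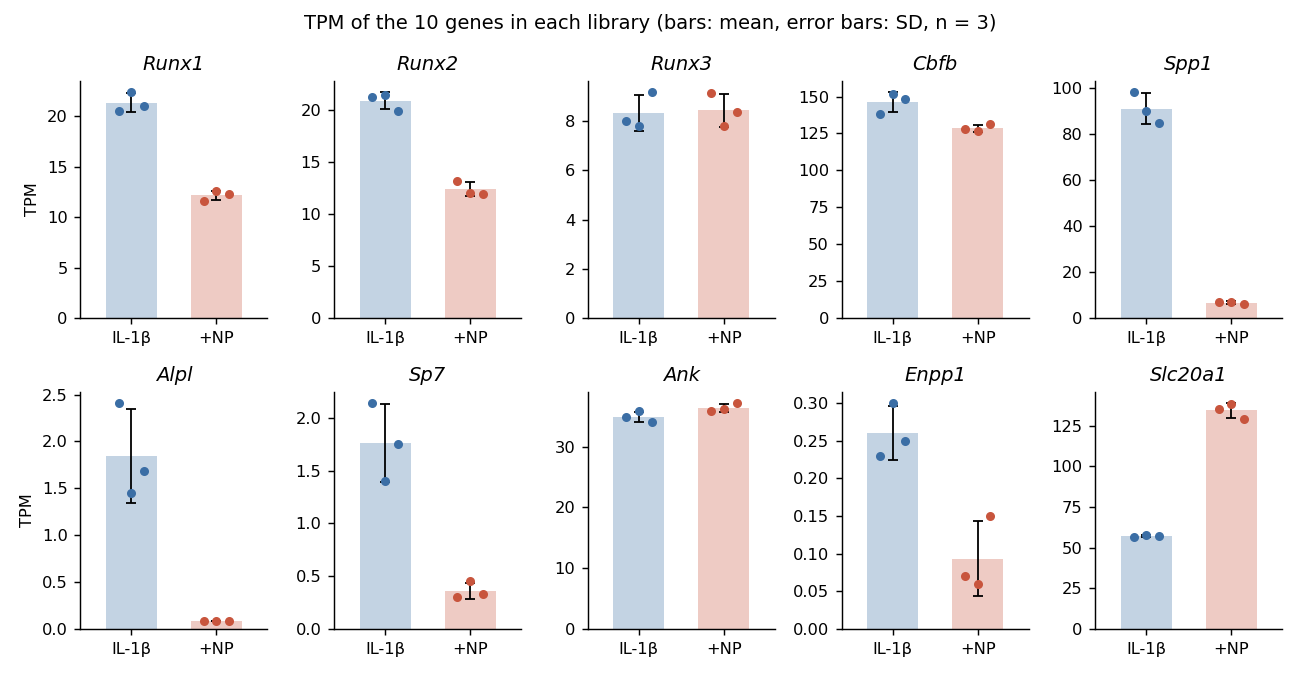
TPM of each gene in the 3 IL-1β libraries (blue) and the 3 libraries with IL-1β plus NP-G2-044 (red, +NP), with bars at the mean, error bars of 1 SD and a linear axis from 0 in each panel. The groups overlap for Runx3 alone, Slc20a1 is higher with the inhibitor, and Spp1, Alpl and Sp7 are far lower.

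Runx1 and Runx2 fell together and by nearly the same factor. Runx1 (Entrez gene 12394, chr16:92601466-92826074, minus strand) stood at 20.56, 22.37 and 21.03 TPM under IL-1β and at 11.64, 12.58 and 12.27 TPM with the inhibitor. All 3 inhibitor libraries lay far below the lowest IL-1β library. Its log2 fold change was -0.79 (standard error, SE, 0.0415, adjusted p = 8.29e-24), which is 0.578 times the IL-1β value as fitted to the counts. Runx2 (Entrez gene 12393, chr17:44495987-44814797, minus strand) stood at 21.26, 21.38 and 19.9 TPM under IL-1β and at 13.19, 12.02 and 11.95 TPM with the inhibitor, again without overlap. Its log2 fold change was -0.71 (SE 0.0442, adjusted p = 1.14e-20). Both changes were smaller than 2-fold, and neither passed a test against a fold change of 2. Runx1 and Runx2 share 106 and 519 exon bases with antisense genes, Gm26626 and Runx2os1, and no source used here says whether counting used the strand.

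Runx3 did not pass the test. Runx3 (Entrez gene 12399, chr4:135120645-135177990, plus strand) stood at 8.01, 7.82 and 9.17 TPM under IL-1β and at 9.14, 7.81 and 8.39 TPM with the inhibitor, and the groups overlapped. The log2 fold change was 0.065 with a 95% interval of -0.091 to 0.22 (adjusted p = 0.445), an interval that leaves out a fall of the size of those of Runx1 and Runx2. Cbfb (Entrez gene 12400, chr8:105170674-105217989, plus strand) was the most abundant of the 10 genes under IL-1β, at 138.43, 151.36 and 148.38 TPM, against 127.7, 126.52 and 131.12 TPM with the inhibitor. It fell by a small amount, with a log2 fold change of -0.15 (SE 0.0304, adjusted p = 1.05e-05).

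The summed level of the 3 RUNX genes was 50.5 ± 0.936 TPM under IL-1β and 33.0 ± 0.849 TPM with the inhibitor (SD, n = 3 each). The share of each gene in the summed TPM did not overlap between the groups either. Runx3 held 16.1%, 15.2% and 18.3% of it under IL-1β and 26.9%, 24.1% and 25.7% with the inhibitor. Runx1 held a mean of 42.2% and then 36.9%, and Runx2 a mean of 41.3% and then 37.5%. The ratio of Cbfb to the RUNX sum was 2.89 ± 0.0992 (SD, n = 3) under IL-1β and 3.89 ± 0.131 (SD, n = 3) with the inhibitor. For the sum, each share and this ratio the groups did not overlap, and an exact two-sided permutation test gave p = 0.1, the smallest that 3 against 3 allows, so none of them could reach 0.05. In shares of summed reads, which are not scaled to gene length, the mean difference was -1.61 percentage points for Runx2, with overlapping groups (exact permutation p = 0.3), against -3.76 in TPM, and 6.02 for Runx3 against 9.06 in TPM. Over the 9 ratios and sums computed, the Benjamini-Hochberg adjusted value of each p of 0.1 in TPM was 0.113. The ratio of Runx1 to Runx2 was 1.02 ± 0.0490 and 0.985 ± 0.0896 (SD, n = 3 each, exact permutation p = 0.6), within the spread of the libraries, and Runx1 and Runx2 could not be ordered in either group.

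**Figure D3:**
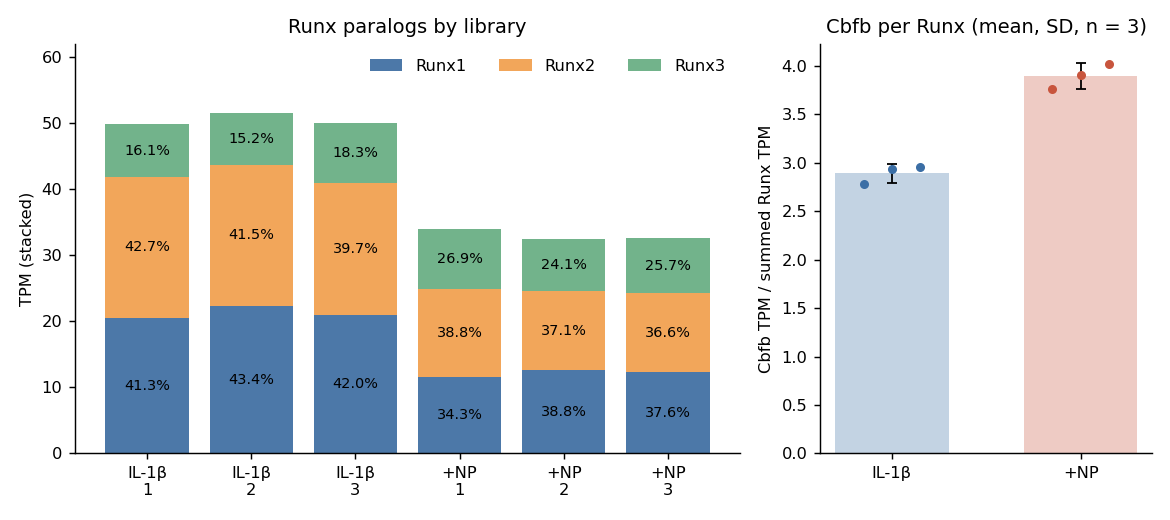
Left, TPM of Runx1, Runx2 and Runx3 stacked in each library, with each gene's percentage of the sum; right, Cbfb TPM over the RUNX sum, with mean and SD of 3 libraries per group. The stacks shrink from a mean of 50.5 to 33.0 TPM while the Runx3 segment stays within 7.81 to 9.17 TPM.

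Sp7 and Spp1, a factor and a matrix protein of bone-forming cells, were both lower with the inhibitor. Sp7 (Entrez gene 170574, chr15:102356603-102367035) was low in all libraries, with 63, 41 and 52 reads under IL-1β and 9, 14 and 10 reads with the inhibitor. In TPM these are 2.14, 1.4 and 1.75 against 0.3, 0.45 and 0.33. The log2 fold change was -2.30 (SE 0.248, adjusted p = 5e-12), and the ratio of pooled reads, IL-1β over inhibitor, scaled by the library totals, was 4.98 with an exact 95% interval of 3.40 to 7.48 that covers counting error only. Spp1 (Entrez gene 20750, chr5:104435111-104441053, plus strand) is measured far more precisely. It stood at 97.93, 89.66 and 84.71 TPM under IL-1β, from 1210, 1077 and 1037 reads, and at 7.21, 6.93 and 6.13 TPM with the inhibitor, from 93, 91 and 81 reads. Its log2 fold change was -3.72 (SE 0.0777, adjusted p = 1.15e-36), a 13.2-fold fall as fitted to the counts. Of the tested genes 0.868% had a lower log2 fold change than Spp1. In order of TPM among the 10 genes it went from rank 2 to rank 7. Spp1 shares 309 exon bases with Gm42793 on the same strand.

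Receptor genes of osteopontin went in both directions. Of the 10 listed, which are integrin subunits and Cd44, 6 were tested, and 2 were higher and 4 lower past the test. Among all tested genes 40.2% were higher and 39.8% lower (6.48% and 10.1% past both cutoffs). The median log2 fold change of the 6 was -0.27, against 0.0018 for all tested genes. Itgb3, the β3 subunit that pairs with αv, was the one gene past both cutoffs, from 11 to 77 pooled reads (log2 fold change 2.70, SE 0.374, adjusted p = 6.1e-09). Its level stayed low, at 0.0633 ± 0.0306 and 0.407 ± 0.0643 TPM (SD, n = 3 each). Itgb3 passed the filter through the inhibitor group, where it is higher, so its call supports nothing by itself. Cd44, Itgav, Itgb1, Itgb5 and Itga5, which were named after their values were seen, had log2 fold changes of 0.24, -0.43, -0.30, -0.69 and -0.24.

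Of the phosphate and pyrophosphate genes, Alpl and Enpp1 were lower, Slc20a1 was higher, and Ank hardly differed. Alpl (Entrez gene 11647, chr4:137741731-137796384, minus strand) gave 58, 33 and 38 reads under IL-1β and 2 reads in each of the 3 inhibitor libraries, or 2.41, 1.45 and 1.68 TPM against 0.08 TPM. The log2 fold change was -4.41 (SE 0.386, adjusted p = 4.77e-15), and the ratio of pooled reads was 22.6 with an exact 95% interval of 10.1 to 62.8. The width of that interval follows from the 6 reads left in the inhibitor group. Enpp1 (Entrez gene 18605, chr10:24637914-24712159, minus strand) was the lowest of the 10 genes under IL-1β, with 15, 20 and 17 reads against 5, 4 and 11 with the inhibitor, or 0.23, 0.3 and 0.25 TPM against 0.07, 0.06 and 0.15 TPM. The groups did not overlap, the log2 fold change was -1.43 (SE 0.364, adjusted p = 0.00039), and the ratio of pooled reads was 2.74 (exact 95% interval 1.61 to 4.84). Enpp1 did not pass a test against a fold change of 2 (adjusted p = 0.289). On the log2(TPM + 1) scale of limma, which shrinks low genes, the differences were -1.38 for Alpl, -1.02 for Sp7 and -0.21 for Enpp1. With log2(TPM + 0.1) the value for Enpp1 was -0.92, so on both scales it no longer passed the fold cutoff.

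The RNA of the enzyme that removes pyrophosphate and that of the enzyme that makes it were thus both lower, and protein was not measured. The log2 ratio of Alpl to Enpp1, on the scale of TPM + 1, was 1.47, 0.914 and 1.10 under IL-1β and 0.0134, 0.0270 and -0.0906 with the inhibitor. These values are a description only. Both genes passed the filter through the IL-1β group, the added 1 holds the ratio of such low levels near 0 with the inhibitor, and the difference of the group means was -1.18 with TPM + 1 and -2.48 with TPM + 0.1.

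Slc20a1 (Entrez gene 20515, chr2:129198773-129211615, plus strand) was the one member higher past both cutoffs. It stood at 56.6, 57.73 and 57.45 TPM under IL-1β and at 135.54, 138.44 and 129.44 TPM with the inhibitor, with no library between. Its log2 fold change was 1.39 (SE 0.0329, adjusted p = 2.33e-39), a 2.62-fold rise as fitted to the counts, against 2.35-fold in mean TPM. Its mean TPM went from rank 3 to rank 1 among the 10 genes, although its libraries then overlapped those of Cbfb. Slc20a1 shares 452 and 280 exon bases with 9830144P21Rik and Gm4430 on the opposite strand. Ank (Entrez gene 11732, chr15:27466677-27594909, plus strand) stood at 34.79, 35.78 and 34.06 TPM under IL-1β and at 35.85, 36.11 and 37.16 TPM with the inhibitor. These ranges lie side by side without overlap, and the log2 fold change was 0.094 with a 95% interval of 0.014 to 0.17 (adjusted p = 0.0282). Without IL-1β replicate 3 its adjusted p was 0.127 and without inhibitor replicate 3 it was 0.117, and DESeq2 gave 0.118, so the call for Ank depends on each of these libraries and on the tool. The ratio of Slc20a1 to Ank was 1.64 ± 0.0390 under IL-1β and 3.70 ± 0.189 with the inhibitor (SD, n = 3 each, exact permutation p = 0.1, the smallest possible).

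**Figure D4:**
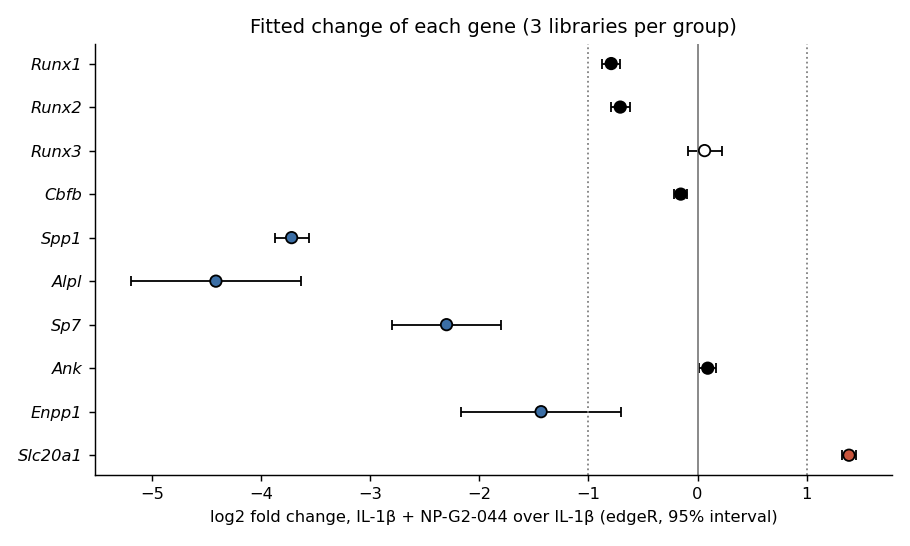
Log2 fold change of each gene with a 95% interval computed from the edgeR test statistic (inhibitor group over IL-1β group), with dotted lines at a log2 fold change of -1 and 1. Filled red and blue points are past both cutoffs, black points pass the test alone, and the open point, Runx3, does not pass.

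In order of TPM under IL-1β, the genes ran Cbfb, Spp1, Slc20a1, Ank, Runx1, Runx2, Runx3, Alpl, Sp7 and Enpp1, with means from 146.1 down to 0.26 TPM. Alpl and Sp7, at 1.85 ± 0.501 and 1.76 ± 0.370 TPM (SD, n = 3 each), are neighbours whose libraries overlap, as are Runx1 and Runx2. With the inhibitor the order was Slc20a1, Cbfb, Ank, Runx2, Runx1, Runx3, Spp1, Sp7, Enpp1 and Alpl. Slc20a1 with Cbfb, Runx2 with Runx1, and Enpp1 with Alpl then overlapped and could not be ordered.

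Other genes of these pathways were taken from lists, and some of their members, like Alpl, passed the filter through 1 group only. Of 21 listed osteoblast and bone matrix genes, 10 were tested. Past the test 1 was higher, 8 were lower and 1 did not pass, against 40.2% higher and 39.8% lower of all tested genes. Past both cutoffs 6 were lower, where 10.1% of all tested genes were. The median log2 fold change was -1.39. Omd (osteomodulin, a bone proteoglycan), Tnfrsf11b (osteoprotegerin, the decoy receptor that restrains osteoclasts), Col1a1 (type I collagen) and Sparc (osteonectin) had log2 fold changes of -3.25, -2.92, -2.80 and -1.91. Omd went from 121 to 13 pooled reads and passed the filter through the IL-1β group, so its call supports nothing by itself. Tnfrsf11b was also low, with 204 and then 28 pooled reads. Sparc was abundant, at 301.9 ± 13.7 TPM and then 79.7 ± 2.25 TPM (SD, n = 3 each), and Col1a1 went from 8.76 ± 0.191 to 1.23 ± 0.131 TPM. Dlx5, a homeobox factor of osteoblasts, was the one gene higher (log2 fold change 0.65, adjusted p = 0.0003), and was named after its values were seen. Tnfsf11 (RANKL) had no read in any library, and Bglap2, Bglap3 and Dmp1, markers of mature osteoblasts and osteocytes, had at most 5 reads in a group.

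Of 12 hypertrophic chondrocyte genes 4 were tested, with 2 higher, 1 lower and 1 not past the test. Among all tested genes 40.2% were higher and 39.8% lower. The median log2 fold change of the 4 was 0.14. Mef2c, a hypertrophy factor, had a log2 fold change of -3.48 from 238 to 22 pooled reads (adjusted p = 6.12e-19). It passed the filter through the IL-1β group. Vegfa, the angiogenic factor, had one of 1.68, from 28.7 ± 1.01 to 90.1 ± 1.63 TPM (SD, n = 3 each, adjusted p = 5.15e-41). Col10a1 and Ihh, which define hypertrophic chondrocytes, had 2 and 4 pooled reads under IL-1β and 3 each with the inhibitor.

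Of 20 further phosphate, pyrophosphate and calcification genes 12 were tested, and all 12 passed, 3 higher and 9 lower. Among all tested genes 40.2% were higher and 39.8% lower, so passing was usual. Past both cutoffs 1 was higher and 1 lower, against 6.48% and 10.1% of all tested genes. The list had a median log2 fold change of -0.26. Stc2 (stanniocalcin 2, a secreted factor tied to phosphate handling) rose from 2.13 ± 0.234 to 20.6 ± 1.01 TPM (SD, n = 3 each, log2 fold change 3.30, adjusted p = 1.58e-31). Smpd3 (neutral sphingomyelinase 2, needed for normal bone mineralization) had a log2 fold change of -1.66 (adjusted p = 9.5e-07), at 0.590 and 0.183 TPM. The phosphate transporters Slc20a2 and Xpr1, an importer and an exporter, named after their values were seen, were higher by log2 fold changes of 0.22 and 0.53, both smaller than that of Slc20a1. Phospho1, the matrix vesicle phosphatase, likewise named after its values were seen, had a log2 fold change of -0.21 (adjusted p = 0.0392).

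Of 33 RUNX partners and regulators 31 were tested, 10 higher, 16 lower and 5 not past the test, with a median log2 fold change of -0.16. Among all tested genes 40.2% were higher and 39.8% lower past the test. Past both cutoffs were 4 higher and 2 lower, against 6.48% and 10.1% of all tested genes. Atf4, the stress factor that works with Runx2 in osteoblasts, rose from 176.3 ± 6.06 to 840.5 ± 17.3 TPM (SD, n = 3 each, log2 fold change 2.30, adjusted p = 1.59e-51). Smurf1, a ubiquitin ligase that marks RUNX proteins for degradation, rose from 29.2 ± 0.0693 to 118.8 ± 2.53 TPM (log2 fold change 2.06, adjusted p = 2.77e-48). Twist2, a repressor of Runx2 function, and Tle2, a Groucho corepressor, had log2 fold changes of -2.50 and -2.17 (adjusted p = 1.92e-25 and 3.01e-20). Smurf1 acts on protein, which was not measured here.

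**Figure D5:**
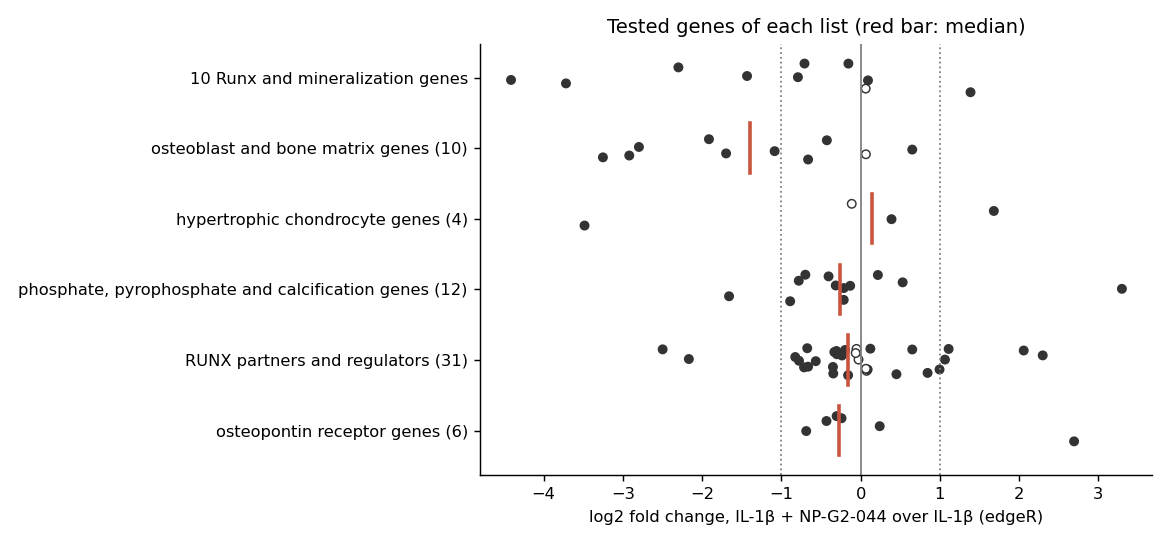
Log2 fold change (inhibitor group over IL-1β group) of the 10 genes and of the tested genes of 5 lists, the number tested in brackets, with filled points for an adjusted p below 0.05 and red bars at each list's median. Medians run from -1.39 for osteoblast and bone matrix genes to 0.14 for hypertrophic chondrocyte genes.

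The cell label was checked on markers. Of 14 chondrocyte markers 9 had a row and 5 were tested, with a summed level of 21.9 to 22.7 TPM under IL-1β and 17.1 to 17.6 TPM with the inhibitor. Matn1, a cartilage matrix protein, had no read in any library, whereas Sox9, the cartilage factor, stood at 6.44 and 11.4 TPM (log2 fold change 0.85). Its partner factor Sox5 went the other way, from 10.3 to 2.27 TPM (log2 fold change -2.49), as did the collagen gene Col11a2, from 5.01 to 3.43 TPM (-0.56). Sox9, Sox5 and Col11a2 made up most of the chondrocyte sum. Comp, Matn3 and Col11a1 had at most 7 pooled reads in a group, and Sox6 stood at 0.183 and 0.193 TPM. Acan was among the markers without a row. The sum over 8 fibroblast markers was 1106 to 1151 TPM and then 337 to 351 TPM, mostly Col1a2, and Thy1 was at 0. Pdgfra of the same list rose from 2.36 to 8.69 TPM (log2 fold change 1.91), whereas the other 4 tested fibroblast markers were lower. The sum over osteoclast and macrophage markers (8 of 9 with a row), cells in which Spp1 is abundant, was 24.1 to 25.4 TPM and then 128.9 to 140.2 TPM, of which the lysosomal gene Cd68 was 12.4 and then 129.9 TPM on average. Cd14 of the same list, a lipopolysaccharide co-receptor, went from 11.4 to 4.89 TPM (log2 fold change -1.19). The other 6 genes of that list with a row, Itgam, Csf1r, Lyz2, Acp5, Ctsk and Calcr, had at most 25 pooled reads in a group, and the blood marker Ptprc was at 0. Tenocyte markers (2 of 3 with a row) summed to 28.5 to 32.9 TPM and then 10.2 to 13.8 TPM, and 5 adipocyte markers to 4.90 to 7.58 TPM and then 0.550 to 0.980 TPM. Blood lineage, skeletal muscle, epithelial and endothelial markers summed to at most 1.35 TPM in any library. The part of any of these in the results for the 10 genes was not tested.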

How the data were processed

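RNA sequencing of 6 mouse libraries, 3 per group, was analysed from 1 table. The submitters' processing notes name cutadapt, HISAT2 2.0, StringTie and mm10. The authors deposited expected counts, estimated per gene and not normalized, together with TPM and FPKM scaled per library. Neither FPKM nor the authors' means per group entered any step. Between 10.17% and 11.06% of counts per library were not whole, and all were rounded. A read shared by overlapping genes may be divided between them by such an estimate.

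Low counts were removed by filterByExpr (minimum count of 10). After TMM normalization, groups were compared in edgeR 4.0.16 (R 4.3.3) by its robust quasi-likelihood test without covariates, with Benjamini-Hochberg adjustment over 11983 genes. For a call, the adjusted p had to be below 0.05 and the log2 fold change had to exceed 1 in size. The edgeR test gives no standard error. Each SE was computed as the size of the log2 fold change divided by the square root of the test's F statistic. The 95% intervals of log2 fold changes used this SE and a t quantile. The steps were tested on simulated counts in which few genes changed, all by more than the fold cutoff. That setting differs from these data and does not cover small changes such as those of Ank and Cbfb. Single ratios were compared with exact permutation tests, and ratios of pooled reads have Clopper-Pearson 95% intervals for counting error. Alternatives were DESeq2 1.42.0, limma 3.58.1 on log2(TPM + 1) or log2(TPM + 0.1), other size factors, other filters, a replicate block, shares of reads in place of TPM, TPM + 0.1 in the ratio of Alpl to Enpp1, a test against a fold change of 2 and each library left out.

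The members and lists were chosen with earlier results of these data known. The text names all members and, per list of pathway genes, up to 4 genes with the largest change among those past both cutoffs without overlap, besides defining markers. The values of 1 listed gene are not reported here. Promoter windows and coordinates are those of RefSeq (GRCm38.p6), and exon overlaps are from GENCODE vM21. Between 2 libraries of 1 group, squared differences were 1.54 to 2.39 times sampling noise, so none was counted as a duplicate.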

Additional observations from a re-analysis of the deposited data

How the results depend on the processing

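Runx1, Runx2, Runx3, Cbfb, Spp1, Alpl, Sp7, Enpp1 and Slc20a1 kept their direction and their side of an adjusted p of 0.05 under every alternative run except the test against a fold change of 2, under which Runx1 (-0.79), Runx2 (-0.71), Cbfb (-0.15) and Enpp1 (-1.43, adjusted p = 0.289) did not pass, nor did Ank (0.094). Ank also did not pass with DESeq2 (0.088), a filter of at least 10 CPM in 3 libraries (0.066) or limma on log2(TPM + 1) or log2(TPM + 0.1) (0.059 and 0.061), with adjusted p from 0.113 to 0.19, and with 1 library left out it ran from 0.072 to 0.11 and lost its call without IL-1β replicate 3 or inhibitor replicate 3. Enpp1 ran from -1.98 to -1.17 with 1 library left out, and lost the fold cutoff with limma on log2(TPM + 1) (-0.21) and log2(TPM + 0.1) (-0.92). Alpl, Sp7 and Enpp1 shrank on the log2(TPM + 1) scale and gave no value under the stricter filter, which leaves them out. That filter left 484 genes higher and 680 lower past both cutoffs, and the lower calls among hypertrophic genes (0), phosphate and pyrophosphate genes (0) and RUNX partners (1) and the higher ones among osteopontin receptors (0) fell because fewer genes were tested. Limma on log2(TPM + 1) gave 514 and 802. Same-numbered libraries did not visibly deviate together (correlations of -0.093, -0.023 and 0.026), so no pairing by number was detected. Squared differences within a group were only 1.54 to 2.39 times sampling noise, so a weak pairing could have been missed. In shares of summed reads the Runx2 difference was -1.61 points (exact permutation p = 0.3). A fit with the replicate block gave 775 higher and 1209 lower and changed no call for the 10 genes. Depth limits Alpl, Sp7 and Enpp1, with 6, 33 and 20 pooled reads in the inhibitor group.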
